A study of Mus musculus with 36 samples.

Results

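Aortic macrophages were compared with monocytes in the baseline state of a mouse model of atherosclerosis. Members were chosen by their labels alone: the 4 libraries of aortic macrophages and the 4 libraries of monocytes from the baseline stage, 8 of the 36 libraries in the series. All mice carried the Apoe ko genotype, so both populations come from animals that lack apolipoprotein E, the ligand that clears remnant lipoproteins from plasma, and no wild-type mice are among the 36 libraries. At baseline the mice ate chow. The other 2 stages, early and advanced, followed 1 month and 6 months of high cholesterol diet. Macrophages were released from whole aorta with collagenase, whereas monocytes came from blood and spleen in which red cells had been lysed, and both were then isolated by flow cytometry directly into lysis buffer. The population therefore cannot be told apart from the tissue and its dissociation. The sort markers, the number of mice behind a library, and the sex and age of the mice are not given in the sources used here, so p-values measure only the spread between these libraries. The measurement was bulk RNA-seq from low-input libraries, given below as CPM, counts scaled to a library total of 1000000 reads, in the order of libraries 1 to 4.

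Monocytes leave the bone marrow, circulate in blood and wait in a splenic reserve. In mice they fall into a classical subset, which carries LY6C and CCR2 and enters inflamed tissue, and a nonclassical subset, which depends on NR4A1, carries CX3CR1 and patrols the vessel wall. The healthy artery holds its own macrophages, many of them in the adventitia and marked by the hyaluronan receptor LYVE1, the folate receptor FOLR2 and the mannose receptor CD206 (Mrc1). Such resident cells take up debris, bind complement and present antigen, and several of them maintain themselves in the tissue with little input from monocytes. PU.1, encoded by Spi1, is the transcription factor that both lineages need.

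The aortic libraries held less information than the monocyte libraries. Depth was 5278901 to 9743795 counted reads in aortic libraries and 9105036 to 14771799 in monocyte libraries. With every library reduced at random to as many reads as the smallest, 10037, 9999, 7790 and 7368 genes had a count in aortic libraries 1 to 4, against 12047 to 13240 in monocytes (exact permutation test, two-sided p = 0.0286, the smallest that 4 against 4 can give; higher in 4 of 4 monocyte libraries). Aortic libraries 3 and 4 thus stand apart from the other two. Among the 1578 genes with a mean of 10 to 20 CPM in monocytes, 9.95% and 12.9% had no count in aortic libraries 1 and 2, and 42.0% and 50.6% had none in libraries 3 and 4. In the 4 peritoneal macrophage libraries of the same stage this share was at most 1.39%. Rank correlations over the tested genes ran from 0.55 to 0.76 between aortic libraries and from 0.97 to 0.99 between monocyte libraries, a description over genes and not over replicates. In bulk RNA, fewer cells of a type and less RNA per cell cannot be told apart.

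**Figure D1:**
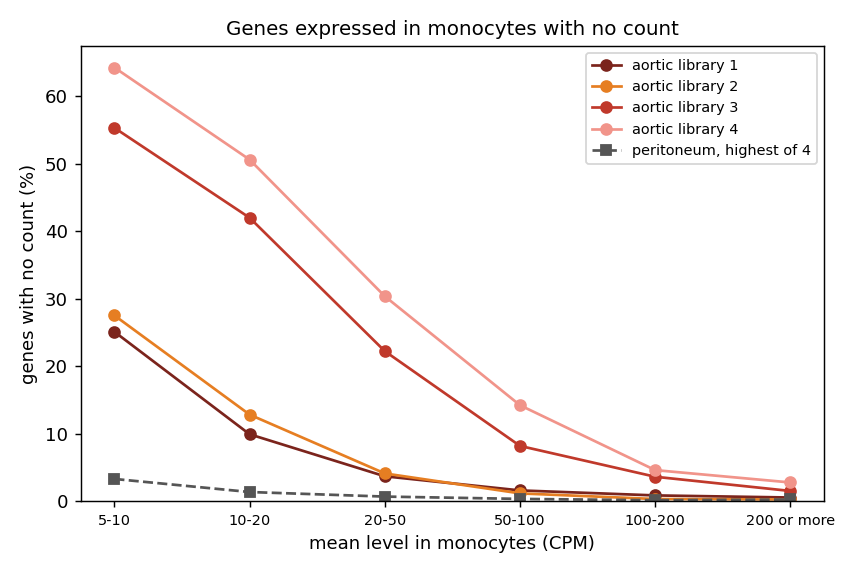
Share of genes with no count (y axis, %) by their mean level in baseline monocytes (x axis, CPM bins), in each aortic library and, as the highest of 4 libraries, in peritoneal macrophages. Libraries 3 and 4 lie above libraries 1 and 2 up to 200 CPM, with 42.0% and 50.6% against 9.95% and 12.9% in the bin from 10 to 20 CPM.

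The labelled cell types were checked against their markers. Csf1r, a receptor gene that both monocytes and macrophages express, was at 2906, 2877, 2337 and 1779.7 CPM in the aorta and 2009.7, 2145, 2191 and 1829 CPM in monocytes, and it did not pass the test (adjusted p = 0.543). Adgre1, which encodes the macrophage antigen F4/80, was at 744, 787, 814 and 407 CPM in the aorta and 227, 227, 220.4 and 226 CPM in monocytes. Ly6c2, a marker of classical monocytes, was at 604, 749, 551 and 412 CPM in monocytes and had 1 count in the 4 aortic libraries together. Both sets of libraries therefore carried the markers of their label. Apoe itself was low in all 8 libraries, at 37.2, 3.36, 2.65 and 38.4 CPM in the aorta and 12.5, 7.58, 12.9 and 6.80 CPM in monocytes. These reads do not say which part of the gene they come from, and no library with an intact gene is present for scale.

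In edgeR's quasi-likelihood test with Benjamini-Hochberg adjustment over 10675 genes, 1084 genes (10.2%) differed at an adjusted p under 0.05. Of these, 394 (3.69%) were higher in aortic macrophages and 690 (6.46%) were lower, and the median log2 difference over all tested genes was -0.07. The spread within the aorta was much the wider one: the biological coefficient of variation over the tested genes was 166% in the aortic libraries and 21.0% in the monocyte libraries. Each of the 353 tested genes with no count in any aortic library was called lower, which makes 51.2% of the lower calls, and 328 of them averaged under 20 CPM in monocytes. By contrast 393 of the 394 higher genes had a count in every aortic library. Without overlap between the populations were 6.96% of the tested genes on the higher and 17.8% on the lower side. Leaving out each of the 8 libraries in turn kept 685 calls in all 8 fits, 248 higher and 437 lower. With one variance weight per population (limma-voom) the calls were 293 higher and 957 lower and the median moved to -1.43, and without aortic libraries 3 and 4 they were 1431 higher and 2108 lower. Lists of pathway and cell state genes are described below by their calls beside these shares. Some lists share members, so their counts are not independent.

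**Figure D2:**
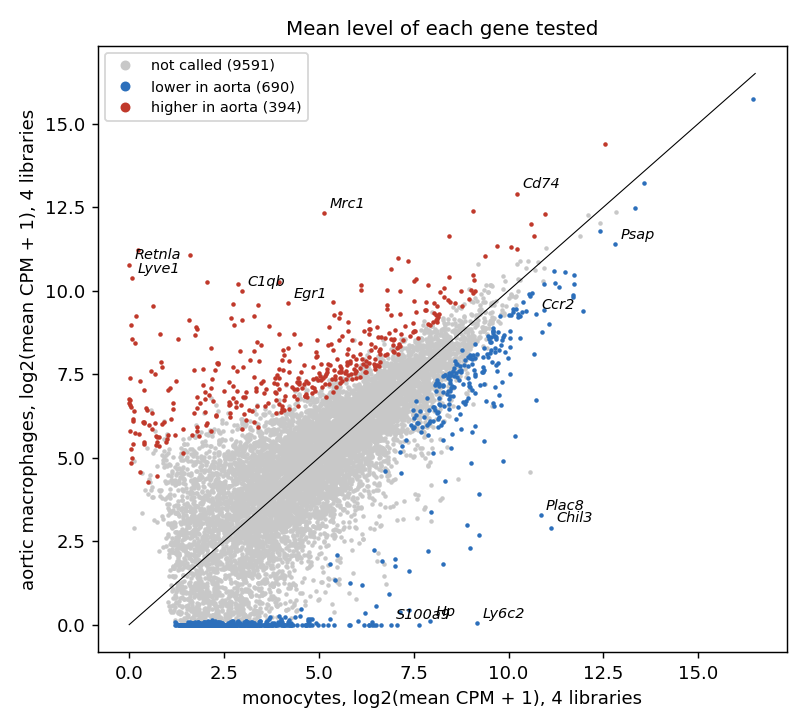
Mean level of each of the 10675 tested genes in the 4 monocyte libraries (x axis) and the 4 aortic libraries (y axis), both as log2(CPM + 1), with the 394 genes called higher and the 690 called lower in the aorta in colour and the line of equal levels. The row of lower genes at the bottom holds the 353 genes with no count in any aortic library.

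Resident macrophage genes made the clearest group among the higher genes. All 16 members of a list for LYVE1-positive resident arterial macrophages were tested and all 16 were higher in the aorta, with a median log2 difference of 8.31, and each was called in all 8 fits that left out a library. Lyve1 (chr7:110850607-110862953, GRCm38), the hyaluronan receptor that names these cells, was at 1108, 1201, 1743 and 1246 CPM in the aorta and at 0.0830, 0.110, 0 and 0 CPM in monocytes. With only 2 counts in the 4 monocyte libraries together, the ratio of the pooled levels was 29425 (95% interval 8145 to 242981), an interval for counting error only. Folr2, the folate receptor beta of these cells, was at 503, 501, 671 and 328 CPM in the aorta, where monocytes had 2 counts in all. Neither gene overlapped between the populations.

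Receptors that take up sugars, hemoglobin and modified proteins followed the same split. Mrc1, the mannose receptor, was at 5679, 5490.1, 5319 and 3953 CPM in the aorta and 42.02, 36.8, 47.2 and 11.5 CPM in monocytes, a log2 difference of 7.17 ± 0.44 (SE, adjusted p = 2.39e-05). Stab1, which encodes stabilin-1, an endocytic receptor for modified lipoproteins and phosphatidylserine, was at 2399, 2235, 1880.3 and 2047 CPM against 0.914, 1.32, 2.71 and 3.21 CPM. Cd163, the receptor for hemoglobin bound to haptoglobin, was at 1398, 1029, 1793 and 714 CPM against 3.99, 3.08, 4.74 and 0.777 CPM. The lowest aortic library exceeded the highest monocyte library for each of them. Smaller differences came from F13a1, the transglutaminase factor XIII, at 4842, 3577, 4591 and 3384 CPM against 1455, 1792, 914 and 1968 CPM, and from the neonatal Fc receptor gene Fcgrt (log2 difference 3.19 ± 0.44).

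The list's secreted factors were likewise on the aortic side. Gas6, the ligand that bridges dying cells to the receptor MERTK, was at 414, 517, 447 and 131 CPM in the aorta, and its 3 monocyte counts were all in library 1. Igf1 was at 504 ± 150.3 CPM (mean ± SD, n = 4) in the aorta and 5.77 ± 3.28 CPM in monocytes. Pf4, which encodes platelet factor 4 and is also made by platelets, was at 481 ± 274 against 2.37 ± 1.16 CPM. Ppbp, another platelet granule gene, was at 28.4, 0, 0 and 0 CPM in the aorta and 15.8, 15.4, 11.8 and 42.4 CPM in monocytes, so it did not move with Pf4. Cbr2, a carbonyl reductase, Ltc4s, which makes leukotriene C4, and Ccl24 gave log2 differences of 8.07 ± 0.70, 9.44 ± 0.98 and 8.55 ± 0.79. Wwp1, a ubiquitin ligase, was at 1029, 767, 914 and 1459 CPM in the aorta and 72.6, 55.4, 76.2 and 65.97 CPM in monocytes. The lectin gene Cd209f was at 137, 107, 147 and 269 CPM in the aorta and had 1 count in monocytes.

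Promoters of 4 genes that separated the populations are shown, as the 250 bases before the RefSeq start site (GRCm38.p6), with each match to GAGGAA, the core letters that PU.1 binds, or its reverse complement TTCCTC in capitals. Stab1, Mrc1 and C1qb stand for the aortic side and Ly6c2 for the monocyte side.
Stab1 (chr14:31168642-31168891, minus strand): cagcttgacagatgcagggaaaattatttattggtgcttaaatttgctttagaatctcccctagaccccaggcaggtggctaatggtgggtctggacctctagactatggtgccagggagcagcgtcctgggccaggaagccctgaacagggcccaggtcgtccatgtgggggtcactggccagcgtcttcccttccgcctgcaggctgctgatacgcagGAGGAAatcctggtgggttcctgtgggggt
Mrc1 (chr2:14229164-14229413, plus strand): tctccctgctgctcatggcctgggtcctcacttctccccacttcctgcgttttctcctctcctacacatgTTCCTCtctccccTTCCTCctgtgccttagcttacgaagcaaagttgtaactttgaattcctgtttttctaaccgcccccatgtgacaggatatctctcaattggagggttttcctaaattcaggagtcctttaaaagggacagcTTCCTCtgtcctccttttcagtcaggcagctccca
C1qb (chr4:136886201-136886450, minus strand): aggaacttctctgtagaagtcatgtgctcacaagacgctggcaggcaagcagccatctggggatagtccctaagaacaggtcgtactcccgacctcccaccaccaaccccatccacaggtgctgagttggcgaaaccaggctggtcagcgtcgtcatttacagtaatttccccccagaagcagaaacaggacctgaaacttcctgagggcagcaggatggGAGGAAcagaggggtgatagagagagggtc
Ly6c2 (chr15:75111972-75112221, minus strand): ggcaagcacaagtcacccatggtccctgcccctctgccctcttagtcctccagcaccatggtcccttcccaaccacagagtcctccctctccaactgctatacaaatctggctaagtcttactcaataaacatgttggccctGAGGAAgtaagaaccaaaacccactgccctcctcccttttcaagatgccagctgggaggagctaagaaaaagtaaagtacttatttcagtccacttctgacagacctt
In Stab1 and C1qb the match began 30 bases before the start site, in Mrc1 there were 3 matches, at 180, 167 and 35 bases, and in Ly6c2 it began 108 bases before. Ly6c2 has 2 promoter windows and only 1 is shown, so its distance holds for that start site alone. The letters occur in many promoters: on either strand they were in 23.3% of all 32851 windows of this length, 27.9% of the windows of genes higher in the aorta and 26.9% of those of genes lower there. A match is a description of the letters, and no binding was measured. Spi1, which encodes PU.1, was at 229, 117, 41.3 and 48.01 CPM in the aorta and 264, 285, 296 and 311 CPM in monocytes and did not pass the test (adjusted p = 0.114).

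Of 14 tested genes of general macrophage identity 10 were higher in the aorta and none was lower, with a median log2 difference of 2.94. Among the 10, Mrc1, Timd4, Cd163 and Folr2 are also in the LYVE1 list. Mertk, the receptor that engulfs apoptotic cells, was at 324, 140.1, 209 and 225 CPM against 6.31, 2.20, 7.24 and 0.486 CPM. Timd4, a phosphatidylserine receptor of long-lived resident macrophages, was at 137, 149.96, 170.3 and 78.6 CPM against 2.57, 0.659, 0.812 and 0.389 CPM. Siglec1, the sialic acid receptor CD169, showed a log2 difference of 2.32 ± 0.26 (adjusted p = 7.31e-04). Fcgr1, Cd68, Csf1r and Itgam, which monocytes carry too, did not pass. Cd68 was at 382 ± 118 CPM in the aorta and 270.2 ± 41.96 CPM in monocytes.

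Among transcription factor genes of macrophages, 3 of 15 tested were higher and none was lower. Without aortic libraries 3 and 4 the counts were 4 higher and 2 lower of 16, and limma-voom called 2 of the 15 higher. Maf, whose product c-MAF supports resident and CD206-positive macrophages, was at 1051, 1316, 1481 and 729.6 CPM in the aorta and 84.4, 64.9, 52.3 and 71.3 CPM in monocytes, a log2 difference of 4.00 ± 0.27 (adjusted p = 3.47e-05). The lowest aortic library lay several times above the highest monocyte library. Tcf4 passed as well, a call lost without aortic library 1 or any monocyte library (adjusted p up to 0.0847). Of 16 tested factors of progenitors and monocytes, 7 were lower in the aorta and none was higher. They included Klf13 (216 ± 56.8 against 809.9 ± 71.6 CPM), Irf5, which drives inflammatory cytokine genes (218 ± 18.5 against 454 ± 34.8 CPM), Klf2 (269.9 ± 48.4 against 508 ± 28.1 CPM) and Nr4a1 (208, 171, 381 and 266 against 609.7, 860.2, 785 and 560.03 CPM). Without aortic libraries 3 and 4, 9 of 18 tested factors of this list were lower and 2 were higher, and in limma-voom 1 of the 16, Klf13, was lower.

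**Figure D3:**
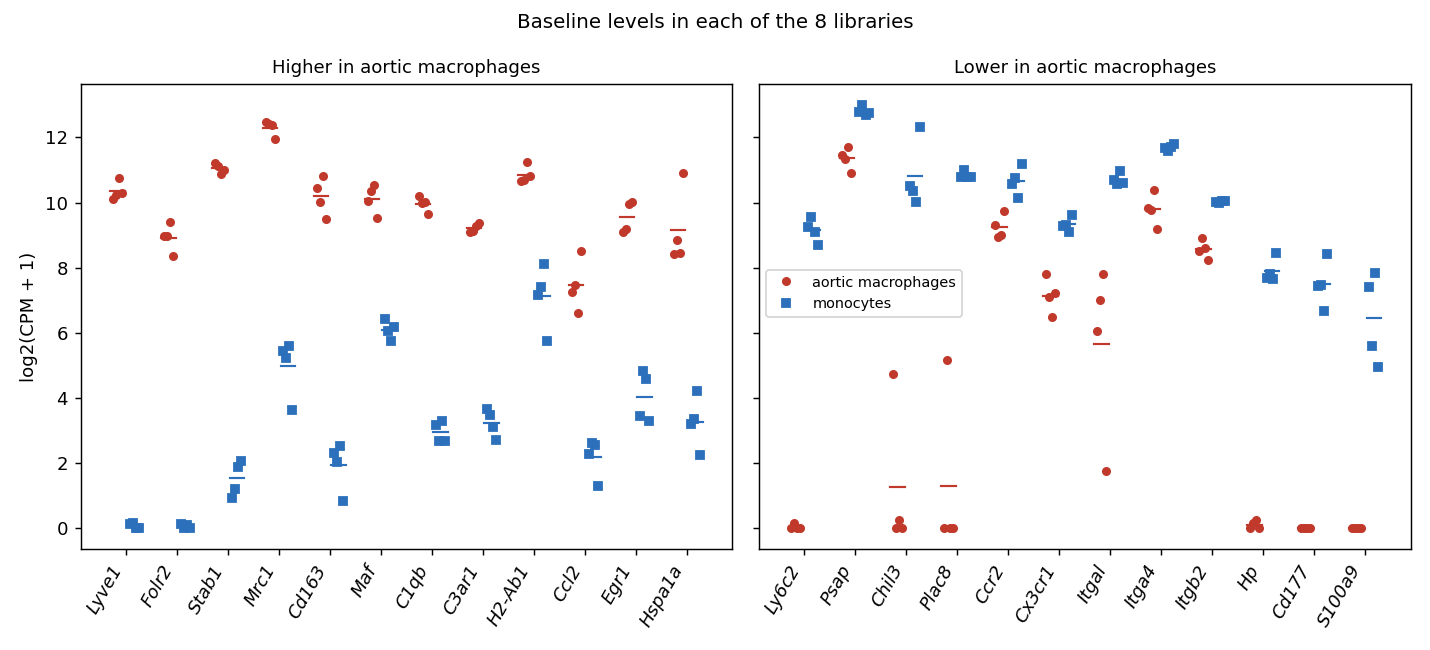
Level of 12 genes higher and 12 genes lower in aortic macrophages, as log2(CPM + 1) on the y axis, with 1 point per library (4 aortic, 4 monocyte) and a line at the mean of the 4 points. CPM is not divided by gene length, so points compare populations within a gene and not genes with each other; among the 24 genes no aortic point lies between the monocyte points.

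Complement genes were higher in the aorta for 8 of 12 tested members, with a median log2 difference of 3.44. C1q is the recognition protein that starts the classical cascade and tags dying cells. Its 3 chains were each high in every aortic library: C1qa was at 474, 507, 532 and 328 CPM, C1qb at 1172, 1015, 1046 and 806 CPM and C1qc at 1119, 1319, 1176 and 1086 CPM. In monocytes C1qb was at 8.06, 5.38, 8.87 and 5.34 CPM, and the log2 difference of 7.13 ± 0.27 had an adjusted p of 2.45e-06. C3ar1, the receptor for the fragment C3a, was at 548, 563, 626 and 667 CPM in the aorta and 11.5, 10.2, 7.58 and 5.54 CPM in monocytes. C5ar1, the receptor for C5a, differed less (317 ± 65.2 against 88.1 ± 28.4 CPM).

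Regulators and components with other roles did not all move with C1q. Cfp, properdin, which stabilises the alternative pathway convertase, was at 449, 325, 421 and 164 CPM in the aorta and 41.9, 40.4, 39.1 and 35.2 CPM in monocytes. C4b was also higher, although it has a near-identical copy and its counts are uncertain. C3, the component on which all branches converge, was lower, at 87.7, 11.5, 0 and 98.8 CPM against 982, 1251, 1075 and 1329 CPM, with an adjusted p of 0.0496, and this call was lost without aortic library 1 or 2 or any monocyte library (adjusted p up to 0.109) and in limma-voom (adjusted p = 0.248). Cfb, the alternative pathway protease, was at 12.01, 106, 9.66 and 0.857 CPM in the aorta and 18.7, 15.3, 28.2 and 21.7 CPM in monocytes and did not pass.

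Antigen presentation genes of the MHC class II pathway were higher for 5 of 10 tested members and lower for none. H2-Ab1, a class II chain, was at 1632, 1658, 2416 and 1806 CPM in the aorta and 144, 170.2, 276 and 52.95 CPM in monocytes (log2 difference 3.51 ± 0.42, adjusted p = 0.00117). Cd74, the invariant chain that guards the binding groove, was at 7670.01, 8009, 9129 and 5701 CPM against 1182, 1187, 1959 and 468 CPM. H2-Aa and H2-Eb1 gave log2 differences of 3.16 ± 0.43 and 3.70 ± 0.53. Ciita, the master regulator of these genes, was at 187, 86.98, 129.8 and 393 CPM against 60.7, 75.3, 107 and 27.7 CPM and did not pass (adjusted p = 0.149). With one variance weight per population none of the 10 passed; the adjusted p of H2-Ab1 was then 0.112. Markers of dendritic cells, which also carry class II, moved in the same direction: their summed level over 8 genes was 273 to 603 CPM in the aorta and 109 to 198 CPM in monocytes, and Cd209a was higher, a call lost without aortic library 2 or 4 or any monocyte library (adjusted p up to 0.117) and in limma-voom. Their part in the result was not tested.

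Of 12 tested scavenger receptor genes 6 were higher and 1 was lower. Besides Mrc1, Stab1 and Cd163, these were Cxcl16, which is both a scavenger receptor and a chemokine (105, 147, 378 and 327 against 6.23, 8.35, 12.6 and 5.44 CPM), Colec12 (259, 296, 296 and 308 against 6.39, 6.15, 3.79 and 18.8 CPM) and Cd36, the fatty acid and oxidised LDL receptor. Cd36, which also sits in the nonclassical monocyte list, was at 961, 843, 783 and 202 CPM in the aorta and 122, 56.6, 201 and 56.3 CPM in monocytes. Msr1, scavenger receptor A, overlapped between the populations (229 ± 118 against 245 ± 81.1 CPM). Scarb1, the HDL receptor, was the lower one, at 47.7, 51.5, 68.6 and 91.5 against 180.3, 196, 190.3 and 207 CPM, a call lost without monocyte library 1, 2 or 4 (adjusted p up to 0.0530). In the efferocytosis list 4 of 13 tested genes were higher, Stab1, Gas6, Timd4 and Mertk, and Lrp1 was lower (1518 ± 345 against 2878 ± 139 CPM). Stab1, Gas6 and Timd4 are also in the LYVE1 list. Without aortic libraries 3 and 4 the efferocytosis counts were 6 higher and 3 lower of 15, and in limma-voom Lrp1 was not among the calls (adjusted p = 0.0586).

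Cholesterol handling genes split. Abca1 and Abcg1 encode the transporters that pass cholesterol to poor and to mature HDL, and both are induced by the sterol sensor LXR. Abca1 was higher in the aorta, at 1238, 1192, 1477 and 1133 CPM against 206, 174, 157 and 183 CPM, a log2 difference of 2.75 ± 0.17 (adjusted p = 2.33e-05). Abcg1 was lower, at 69.4, 65.1, 83.7 and 17.3 CPM against 290.4, 295, 265 and 280.3 CPM, a log2 difference of -2.35 ± 0.43 (adjusted p = 0.0111). The pair therefore differed in opposite directions with no overlap in either. Of the 14 tested members of this list 3 were higher and 2 lower; Pltp and Abca9 were the other higher members, and limma-voom called 3 higher and 1 lower. Lpl, lipoprotein lipase, was at 1316, 828, 719 and 1171 CPM against 147, 115, 76.02 and 217 CPM.

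The lipid-associated macrophage list, which marks foam cells of plaques, had 4 of 14 tested members higher: Lpl, Cd63, Ctsd and Ctsl. None was lower. Without aortic libraries 3 and 4, 5 of 15 tested members of this list were higher and 3 were lower, and limma-voom called 3 of the 14 higher. Trem2, the receptor that names these cells, was at 7.70, 42.1, 0 and 5.57 CPM in the aorta and 14.4, 11.3, 10.8 and 22.6 CPM in monocytes. Gpnmb, another foam cell marker, had no count in any baseline aortic library, but it was also low in monocytes (1.08, 1.43, 0.745 and 4.08 CPM) and was not tested in this comparison. Neither Trem2 nor its companion Cd9 (86.5, 41.03, 201 and 0.429 against 25.1, 20.1, 31.5 and 31.5 CPM) passed. Of 26 tested lysosomal genes 6 were higher and 2 lower. Lgmn, the protease legumain, was higher (633 ± 159 against 140.4 ± 11.7 CPM) and so was Ctsc (1411 ± 419 against 531 ± 69.6 CPM). Psap, the precursor of the saposins that help degrade sphingolipids, was lower, at 2848, 2600.3, 3317 and 1921 against 7108, 8214, 6571 and 6921 CPM, and Ctss, a protease that processes the invariant chain, was lower too (921 ± 103 against 1514 ± 45.2 CPM). Without aortic libraries 3 and 4 these counts were 10 higher and 4 lower. Limma-voom called 4 higher and 0 lower, with an adjusted p of 0.0704 for Psap and 0.0977 for Ctss.

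Chemokine genes were higher wherever they passed. Of 10 tested CC chemokines 5 were higher, and of 7 tested CXC chemokines 4 were higher. Ccl2, the ligand that draws CCR2-positive monocytes out of blood, was at 151, 175, 95.7 and 362 CPM in the aorta and 3.82, 5.16, 4.87 and 1.46 CPM in monocytes. Its neighbours Ccl7 and Ccl12 gave 85.1, 58.5, 4.17 and 281 CPM and 61.5, 116, 11.2 and 147 CPM in the aorta, with no monocyte count of Ccl7 and 5 of Ccl12. The pooled level of Ccl7 was thus at least 1867-fold higher, taking 3 counts over the group as the floor. Library 3 was the lowest and library 4 the highest of the aortic libraries for these 3 genes, and no aortic library overlapped the monocytes.

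Ccl8 and Ccl24, chemokines of resident and alternatively activated macrophages, were at 107, 132, 149.8 and 6.00 CPM and 94.9, 98.5, 175 and 146 CPM in the aorta, and monocytes had no count of Ccl8. Among CXC genes, Cxcl1 and Cxcl2, which recruit neutrophils, were higher, at 356, 344, 179.6 and 536 CPM against 2.82, 28.4, 6.43 and 0 CPM for Cxcl2. The call of Cxcl1 was lost without monocyte library 2, 3 or 4 (adjusted p up to 0.0682), and that of Cxcl2 was lost without aortic library 1 or 2 or monocyte library 1 or 3 (adjusted p up to 0.0883). Tnf was higher as well (80.8, 108, 52.5 and 343 against 12.5, 15.6, 15.3 and 12.05 CPM, adjusted p = 0.0126), and so was Cd83. In the NF-kB list of 16 tested genes 3 were higher (Tnf, Cd83 and Il1a) and 1, Nfkb1, which encodes the subunit p50, was lower (159 ± 24.3 against 348 ± 26.3 CPM), a call lost in limma-voom (adjusted p = 0.117).

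Markers of alternative activation, the state that IL-4 induces, were higher for 6 of 12 tested genes and lower for 1. Retnla, which encodes the secreted protein RELMα, was at 2683, 1742, 2282 and 288 CPM in the aorta and had no count in monocytes, so the pooled level was at least 26104-fold higher. Mgl2 and Clec10a are neighbouring, similar lectin genes whose reads could be shared. Mgl2 was at 867, 605, 854 and 677 CPM in the aorta and 0.581, 0.769, 0.880 and 0 CPM in monocytes, and Clec10a at 381, 324, 356 and 276 against 24.6, 29.9, 18.2 and 13.9 CPM. The lower gene was Chil3, which is also a marker of classical monocytes and stood at 1469, 1306, 1041 and 5113 CPM there, against 25.8, 0, 0.189 and 0 CPM in the aorta. Library 4 of the monocytes was the highest for Chil3.

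Immediate-early genes respond within minutes to stress or growth signals, and heat shock genes respond to unfolded protein. Of 25 tested members 11 were higher in the aorta and 1, Nr4a1, was lower; the median log2 difference was 1.65. Egr1, an immediate-early factor, was at 543, 589, 998 and 1031 CPM in the aorta and 9.88, 27.5, 22.8 and 8.84 CPM in monocytes (log2 difference 5.50 ± 0.49, adjusted p = 1.73e-04). Jun was at 832, 859, 1165 and 2316 CPM against 124, 317, 247 and 60.5 CPM, and Fosb at 214, 279.9, 316 and 644 CPM against 41.1, 80.6, 48.7 and 10.98 CPM. Ier3 was at 151 ± 62.4 against 5.22 ± 1.72 CPM. Other members of the same program did not pass: Fos was at 1029, 932, 1042 and 995 CPM against 509, 1124, 663 and 509.5 CPM, Zfp36 at 549.7, 827, 423 and 1434 against 449.95, 903, 692 and 519 CPM, and Atf3 at 340.02 ± 251 against 105 ± 72.4 CPM. Aortic cells had been digested with collagenase and monocytes had not, so digestion and population cannot be told apart in this list. Without aortic libraries 3 and 4 the counts were 9 higher and 1 lower, and with one variance weight per population 5 higher and none lower.

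The inducible chaperones Hspa1a and Hspa1b encode near-identical HSP70 proteins, and aligned reads can be split between them. Hspa1a was at 339.8, 457, 346 and 1917 CPM in the aorta and 8.14, 9.23, 17.4 and 3.69 CPM in monocytes, and Hspa1b at 408, 717, 754 and 3028 CPM against 15.8, 19.00, 19.97 and 3.59 CPM. Library 4 was the highest aortic library for both. Their promoters are shown to display how alike the copies are, with the match to GAANNTTC, a pair of heat shock element units facing each other, in capitals (250 bases before the start, GRCm38.p6).
Hspa1a (chr17:34972157-34972406, minus strand): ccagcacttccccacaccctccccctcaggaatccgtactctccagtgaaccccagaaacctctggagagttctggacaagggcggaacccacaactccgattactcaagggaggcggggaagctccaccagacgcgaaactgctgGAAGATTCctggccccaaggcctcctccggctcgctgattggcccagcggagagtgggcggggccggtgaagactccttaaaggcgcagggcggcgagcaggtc
Hspa1b (chr17:34959239-34959488, minus strand): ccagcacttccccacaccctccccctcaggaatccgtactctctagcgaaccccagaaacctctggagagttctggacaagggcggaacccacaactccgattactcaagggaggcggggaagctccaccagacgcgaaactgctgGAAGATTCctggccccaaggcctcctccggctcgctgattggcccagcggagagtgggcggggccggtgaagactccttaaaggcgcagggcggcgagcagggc
The 2 sequences were the same at 247 of 250 positions (98.8%), and in both the match began 104 bases before the start. Because GAANNTTC reads the same on both strands it was searched once, and it was in 6.69% of all windows of this length and in 4 of 26 windows of the immediate-early and heat shock list (15.4%). CArG boxes, the sites of serum response factor, were in 19.2% of that list's windows and in 1.47% of all windows.

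Genes of classical monocytes were lower in the aorta for 8 of 14 tested members and higher for none, with a median log2 difference of -4.15. Ly6c2 was at 604, 749, 551 and 412 CPM in monocytes; with 1 count in the aorta the ratio of the pooled levels was 18716 (95% interval 3359 to 739290.00). Ly6c2 has a similar neighbour, Ly6c1, so its reads could be shared. Hp, haptoglobin, was at 203, 223, 199 and 349 CPM in monocytes and had 2 counts in the 4 aortic libraries. Plac8 was at 0, 34.7, 0 and 0 CPM against 1774, 2027, 1766 and 1769 CPM; all its aortic counts came from library 2, and its call was lost without aortic library 3 or any monocyte library (adjusted p up to 0.0601).

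Ccr2, the receptor by which classical monocytes leave the marrow and enter tissue, was lower and yet present in every aortic library. It was at 637, 495, 517 and 856 CPM in the aorta and 1516, 1744, 1120.1 and 2328 CPM in monocytes, a log2 difference of -1.47 ± 0.29 (adjusted p = 0.0124). Fn1, fibronectin, was at 4134 ± 1069 CPM in the aorta and 5448 ± 1725 CPM in monocytes and did not pass. For Vcan, F10, F5 and Mgst1 every aortic library lay below every monocyte library, but none of the 4 passed; over all tested genes 17.8% were without overlap in this direction. Vcan was at 0, 0, 0.568 and 50.5 CPM against 193, 301, 183 and 527 CPM. With one variance weight per population 2 of the 14 were lower, and without aortic libraries 3 and 4, 11 were.

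Nonclassical monocyte genes were lower for 6 of 14 tested members and higher for 1, Cd36. Cx3cr1, the fractalkine receptor, was at 221, 135, 87.9 and 147 CPM in the aorta and 622, 637, 543 and 788 CPM in monocytes (log2 difference -2.19 ± 0.30, adjusted p = 0.00236). Ace, which marks this subset, was at 0.205, 82.8, 8.90 and 0 CPM against 1629, 1202, 2079 and 1098 CPM, without overlap and just outside the threshold (adjusted p = 0.0504). Treml4 and Spn showed the same pattern, with adjusted p = 0.108 and 0.0846. None of the 14 was lower or higher with one variance weight per population, where the adjusted p of Cx3cr1 was 0.227. Without aortic libraries 3 and 4, 9 were lower and 1 was higher.

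Adhesion and trafficking receptors of blood leukocytes were lower for 8 of 18 tested members and higher for 2. Itga4, the alpha chain of the VCAM1-binding integrin VLA-4, was at 907, 867, 1352 and 587 CPM in the aorta and 3299, 3086, 3368 and 3549.7 CPM in monocytes. Itgb2, the shared beta chain of the leukocyte integrins, was at 362, 482, 387 and 298 CPM against 1037, 1011, 1053 and 1066 CPM. Itgal, the alpha chain of LFA-1, was at 65.5, 127, 223 and 2.36 CPM against 1641, 1524, 1994 and 1552 CPM, a call lost without aortic library 1 or 2 (adjusted p up to 0.0681). S1pr4, a receptor for sphingosine 1-phosphate, had 1 count in the aorta and 17.3, 7.47, 13.1 and 14.96 CPM in monocytes. Among the higher genes was the chemokine receptor Ccr1, at 156, 187, 60.2 and 131 CPM in the aorta and 20.1, 29.3, 16.9 and 46.5 CPM in monocytes, a call lost without aortic library 1 or 2 or monocyte library 1, 2 or 3 (adjusted p up to 0.122). The list's counts in limma-voom were 5 lower and 1 higher.

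Granule genes shared by neutrophils and their progenitors were lower for 11 of 15 tested members and higher for 1. Of the list's 18 genes in the data, 12 had no count in any aortic library. Every tested gene of that kind was called lower, and such genes entered the test through their monocyte counts alone. Cd177, a neutrophil surface protein, was at 173, 175, 99.99 and 342 CPM in monocytes and had no count in the aorta, so it was at least 2048-fold lower there. Mmp8, the neutrophil collagenase, was at 63.9, 84.6, 42.4 and 169.8 CPM in monocytes and had none in the aorta. The calprotectin genes S100a8 and S100a9 were at 113, 32.7, 144 and 26.04 CPM and 169, 47.7, 228 and 29.9 CPM in monocytes, with no aortic count. Both were lowest in monocyte libraries 2 and 4, which were the highest for Cd177 and Mmp8. Mmp9, gelatinase B, was the exception, at 305, 91.9, 449 and 316 CPM in the aorta and 13.8, 3.73, 6.02 and 2.72 CPM in monocytes. The fitted median log2 difference of the list was -8.21, or -5.46 with genes that had no aortic count set at their bound. In limma-voom 4 of the 15 were lower and 1 was higher, and the adjusted p of Cd177 and S100a9 was then 0.295 and 0.461.

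Markers of mature neutrophils overlap this list and were lower for 6 of 7 tested members, or for 2 of 7 in limma-voom. The same limit applies, since 5 of the 7 had no aortic count. Their summed level was 591 to 840 CPM in monocytes and 40.5 to 109 CPM in the aorta, where S100a8, S100a9, Cxcr2, Mmp8 and Camp had no count and Retnlg had counts in library 2 alone. Csf3r, the G-CSF receptor, which monocytes carry too, made up the rest of the aortic sum (72.9, 58.9, 40.5 and 109 CPM in the aorta against 369, 395, 371 and 414 CPM). Slc4a1, the red cell anion exchanger, was also on the monocyte side, at 77.4, 13.1, 186 and 38.4 CPM in monocytes with no aortic count. The part of neutrophil or red cell RNA in these results was not tested.

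Interferon-stimulated genes were lower for 4 of 22 tested members and higher for none. Ifitm3, which blocks viral entry, was at 333, 321, 322 and 279.8 CPM in the aorta and 1035, 1402, 947 and 836 CPM in monocytes, and Irf7 was at 57.4, 92.02, 92.4 and 41.4 CPM against 309, 319, 329.7 and 168 CPM. Ifitm6 was lower with a call lost without aortic library 2 or 3 or monocyte library 4 (adjusted p up to 0.0613). The count was 10 of 22 lower without aortic libraries 3 and 4. Of 17 tested Toll-like and Fc receptor genes 4 were higher and 3 lower. The endosomal receptors Tlr7 (356, 222, 566 and 176 against 893, 877, 887 and 914 CPM), Tlr9 and Tlr13 were the lower ones, with the call of Tlr13 lost without aortic library 2 or 3 or any monocyte library (adjusted p up to 0.111). Cd14, the surface co-receptor for endotoxin, was higher (298, 193, 319 and 523 against 22.9, 63.2, 36.2 and 24.7 CPM). Tlr4, its partner, was higher too, at 209, 96.7, 123 and 474 CPM against 56.1, 50.3, 63.6 and 53.2 CPM, a call lost without aortic library 1 or any monocyte library (adjusted p up to 0.119). Fcgr2b, the inhibitory Fc receptor, was higher (738 ± 235 against 278 ± 35.4 CPM). Limma-voom called 3 of the 17 higher and 1 lower.

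Iron and matrix genes that passed were mostly on the aortic side. Of 15 tested genes for heme, iron and oxidative defence 4 were higher, among them Fth1, the ferritin heavy chain (2542 ± 560.3 against 1079 ± 229 CPM), and Slc40a1, the iron exporter ferroportin (159 ± 38.8 against 32.5 ± 19.1 CPM). The counts were 3 higher and 3 lower without aortic libraries 3 and 4, and 1 higher and 1 lower in limma-voom, where the adjusted p of Fth1 was 0.176. Of 13 tested matrix and protease genes 5 were higher and 1, Mmp8, was lower, or 4 and 0 in limma-voom. Timp2, a metalloproteinase inhibitor, was at 630.04, 329, 951 and 397 CPM against 45.6, 49.9, 30.9 and 53.1 CPM. Mmp12, macrophage elastase, was at 93.4, 53.9, 0 and 249.7 CPM against 1.66, 0.769, 0.948 and 1.55 CPM, a call lost without aortic library 1, 2 or 4 or any monocyte library (adjusted p up to 0.131).

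Genes of basic cell functions gave few calls. Of 25 tested oxidative phosphorylation genes 0 passed in edgeR, with 0 higher and 0 lower at an unadjusted p under 0.05, and their median log2 difference was -0.46. DESeq2 called 0 higher and 1 lower, and limma-voom called 1 lower. Of 29 tested cytosolic ribosomal protein genes 1 was higher, Rplp1, a call lost without aortic library 1, 2 or 3 or any monocyte library (adjusted p up to 0.120), and 1 was lower, Rplp0, and near-identical copies make their counts uncertain; neither passed in limma-voom. Of 20 tested replication and mitosis genes 0 passed in edgeR, with a median of 1.38, 2 higher and 0 lower at an unadjusted p under 0.05. DESeq2 called 2 higher and 0 lower, and limma-voom called 0. Mki67, a marker of cycling cells, was at 291, 661, 181 and 368 CPM in the aorta and 177, 57.9, 309.8 and 30.5 CPM in monocytes. Its values overlapped between the populations. In the absence of aortic libraries 3 and 4, 5 replication and mitosis genes were higher, 9 ribosomal protein genes were lower and 4 oxidative phosphorylation genes were lower.

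**Figure D4:**
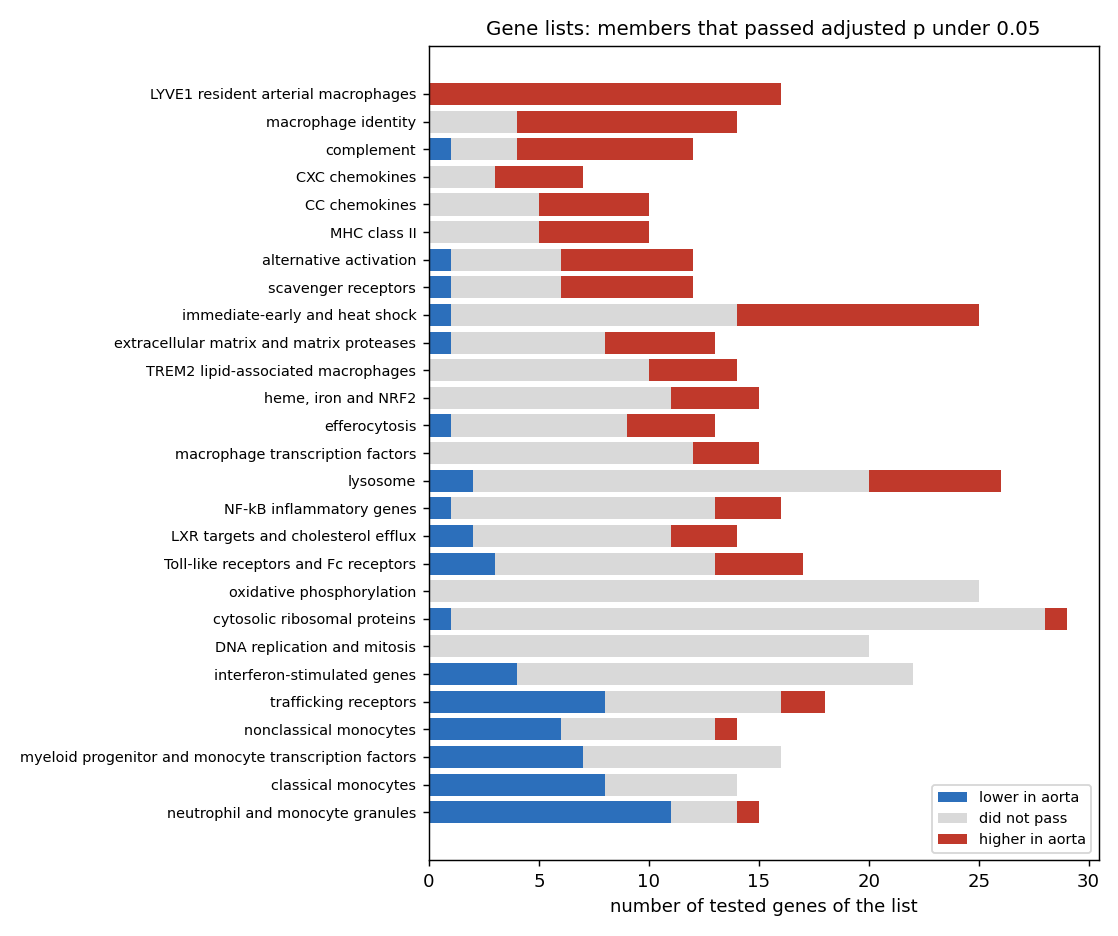
Number of tested genes in each of 27 lists (x axis) that were lower in the aorta, did not pass, or were higher in the aorta at an adjusted p under 0.05. The list of LYVE1-positive macrophages has all 16 members higher, and the granule list has 11 of 15 lower. Every tested gene with no aortic count was called lower.

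The genes with the largest differences beyond these lists were chosen by rank among those that passed in all 8 fits that left out a library. Dab2, an endocytic adaptor, was at 2708, 2342, 2565 and 1873 CPM in the aorta and 0.166, 0.439, 0.135 and 0 CPM in monocytes. Fcrls, an Fc receptor-like gene known from microglia, was at 812, 812, 663 and 148 CPM against 0.166, 0, 0.406 and 0 CPM. Pmp22, a membrane protein of myelin, was at 198, 409.6, 343 and 418 CPM, and Cyr61, a matricellular immediate-early gene, at 71.4, 27.6, 123 and 201 CPM, with 5 and 1 monocyte counts in all. Library 4 was the lowest aortic library for Fcrls and the highest for Cyr61. On the other side, Mcemp1, Megf9, Sirpb1a, Itga1 and Clec4e had no count in any aortic library. Mcemp1 was at 85.5, 98.2, 87.7 and 122 CPM in monocytes, Itga1, the collagen-binding integrin alpha-1, at 52.2, 62.8, 40.8 and 64.8 CPM, and Clec4e, the mycobacterial glycolipid sensor Mincle, at 32.1, 60.8, 45.6 and 78.99 CPM. Sirpb1a has close paralogs and its count is uncertain.

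Markers of other cells that an aortic digest could hold were detected. Fibroblast genes summed to 56.8, 287, 144 and 8.89 CPM in the aortic libraries and to at most 0.549 CPM in monocytes (exact permutation test, two-sided p = 0.0286, higher in 4 of 4). Col1a2 was the one fibroblast gene with enough counts for the test and was higher (28.2, 33.6, 58.9 and 1.07 against 0.0830, 0, 0.0677 and 0.0972 CPM), a call lost without monocyte library 1, 2 or 3 (adjusted p up to 0.0569). Smooth muscle genes summed to 59.7, 91.8, 49.3 and 1.39 CPM in the aorta and 7.58 to 24.4 CPM in monocytes, and Acta2, the smooth muscle actin, was at 0, 0.480, 0 and 1.39 CPM. Endothelial genes summed to 5.79 to 87.6 CPM in the aorta and 27.0 to 65.1 CPM in monocytes, with Cdh5 at 0 in every aortic library. T and NK cell genes summed to 121 CPM in aortic library 2, to 0 in the other aortic libraries and to 16.6 to 53.2 CPM in monocytes. Of 6 tested, 2 were lower in the aorta, Nkg7 and Cd3e. Mast cell genes summed to 128 CPM in aortic library 2, at most 0.103 CPM in the others and 2.04 to 12.9 CPM in monocytes. B cell genes summed to 86.8, 22.3, 3.60 and 15.2 CPM in the aorta and 15.0 to 53.7 CPM in monocytes, and 0 of 5 tested passed. Aortic library 2 had the highest sums of fibroblast, smooth muscle, endothelial, T and NK cell and mast cell genes. Gata6, the factor of large peritoneal macrophages, had no count in either population and 169 ± 9.93 CPM (mean ± SD, n = 4) in peritoneal macrophages. The part of these cells in the differences above was not tested.

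Whether the difference between the populations at baseline was the same on high cholesterol diet was tested in 1 fit of the 24 aortic and monocyte libraries, as the baseline difference minus the mean of the early and advanced differences. Of 10696 genes, 363 passed (3.39%): for 31 (0.290%) the aorta stood higher relative to monocytes at baseline than on diet, and for 332 (3.10%) it stood lower. Of the 332, 194 had no count in any baseline aortic library, and 229 of the 363 held in all 8 fits that left out a baseline library. The stages also differed in depth: baseline libraries held 5278901 to 14771799 counted reads, and those on diet 942899 to 2628766. Even so, aortic libraries on diet had a count for 9216 to 13293 genes, against 7565 to 10163 at baseline. Stage therefore cannot be told apart from depth or from the number of genes detected in the aortic libraries. After thinning all 24 libraries to the shallowest, 14 genes stood higher and 153 lower. The baseline libraries enter both sides of this account, so it is not independent of the comparison above.

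Clec4e had the smallest adjusted p in this test. It had no count in the 4 baseline aortic libraries and was at 32.1, 60.8, 45.6 and 78.99 CPM in baseline monocytes. On diet it was at 53.6 to 158 CPM in the early and 113 to 208 CPM in the advanced aortic libraries, and at 43.9 to 59.95 and 89.6 to 132 CPM in monocytes (adjusted p = 2.13e-10). The baseline aortic libraries thus lay below every aortic library on diet. Gpnmb also had no baseline aortic count, but its early aortic libraries were at 12.7, 0, 8.75 and 0.501 CPM. It reached 263 ± 131 CPM (mean ± SD, n = 4) at the advanced stage (adjusted p = 3.78e-04). Abcg1, Mfge8 and Ctsb shifted the same way; Ctsb, cathepsin B, was at 2022, 2043, 2289 and 1203 CPM in the baseline aorta and at 3064 ± 501 and 3934 ± 484 CPM on diet, against 1260.2 ± 99.5 CPM in baseline monocytes.

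Part of the immediate-early list was in this group. Of 25 tested members 5 stood lower at baseline (Fos, Junb, Zfp36, Nr4a1 and Klf6) and none higher, with a median shift of -1.02 beside -0.03 over all genes. Fos was at 1029, 932, 1042 and 995 CPM in the baseline aorta and at 2849.6 to 5701 and 2543 to 3885 CPM in the early and advanced aorta, while its monocyte means were 702 ± 291, 1032 ± 187 and 722 ± 291 CPM (shift -1.71 ± 0.33, adjusted p = 0.00431). Zfp36, whose product degrades cytokine messages, and Junb shifted likewise, by -1.84 ± 0.37 and -1.55 ± 0.31. Nr4a1 shifted by -2.07 ± 0.38 with movement on both sides: the aortic means were 257 ± 91.8, 547 ± 306 and 578 ± 135 CPM and the monocyte means 704 ± 142, 465 ± 53.5 and 339 ± 131 CPM. Without aortic baseline libraries 3 and 4, 12 members stood lower. Of 18 tested NF-kB genes 3 stood lower, Nfkbiz, Il1b and Il10, or 11 without those libraries; Il1b was at 21.9, 85.2, 51.1 and 294 CPM in the baseline aorta and 623 to 758 CPM at the advanced stage.

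Few genes shifted the other way. Cd63, a tetraspanin of late endosomes, stood higher at baseline (shift 2.54 ± 0.61, adjusted p = 0.0161): its aortic means were 142 ± 77.1, 156 ± 70.5 and 226 ± 63.6 CPM, and its monocyte means were 2.86 ± 1.08, 19.4 ± 9.62 and 30.4 ± 21.3 CPM. The aortic values overlapped across stages and the baseline monocytes lay below all monocyte libraries on diet. Mgl2 shifted by 2.22 ± 0.54, with 0.558 ± 0.392, 2.29 ± 1.43 and 2.46 ± 1.96 CPM in monocytes over the 3 stages. E2f8, a repressor of the cell cycle, was at 2.87, 45.5, 7.77 and 89.2 CPM in the baseline aorta and 0 to 0.762 and 0.932 to 9.33 CPM on diet, where the advanced libraries overlapped baseline (adjusted p = 0.00708). Lrg1, Mpo, Dsn1, Zdhhc1, Ccl5, Mrpl57 and Ramp1 also passed, but each held in at most 4 of the 8 fits that left out a baseline library. Lyve1 passed with an adjusted p of 0.0485, held in 3 of those fits, and had at most 2 counts in baseline monocytes. Its aortic values were 1108, 1201, 1743 and 1246 CPM at baseline, 1131 to 1986 CPM early and 635 to 1062 CPM at the advanced stage. Apart from Lyve1 none of the 16 LYVE1 list members passed in this test.

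**Figure D5:**
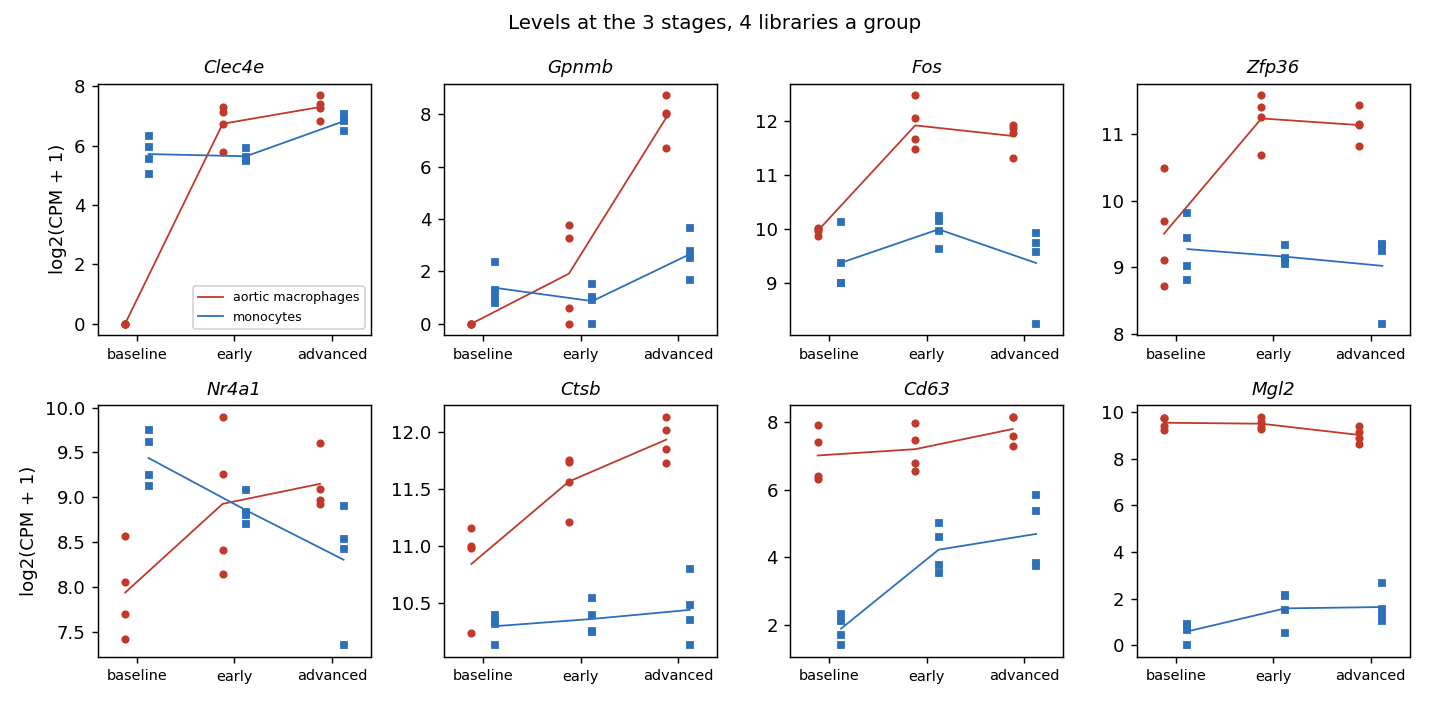
Level of 8 genes, as log2(CPM + 1) on the y axis, in aortic macrophages and monocytes at the baseline, early and advanced stage, with 1 point per library (4 a group) and lines through the means of the points; each panel has its own y range that does not start at 0. Clec4e and Gpnmb have no count in the baseline aorta, Fos and Zfp36 overlap between the populations at baseline and not on diet, and the baseline monocytes lie below all monocyte libraries on diet for Cd63.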

How the data were processed

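Per the submitters' processing notes, reads were handled with STAR and featureCounts on mm10; versions, options and strandedness are not given in the sources used here, so overlapping and antisense genes may share reads. The authors deposited 1 table of counts per library, whole reads per gene for 24421 gene symbols. Counts were tested as deposited with edgeR 4.0.16 (R 4.3.3): filterByExpr, TMM factors, quasi-likelihood fit and Benjamini-Hochberg adjustment over all tested genes, on the 8 baseline libraries. CPM uses the library's total. The contrast with diet used 24 libraries in 6 groups. Alternatives were RLE factors, no filter, DESeq2 1.42.0, limma 3.58.1 (voom), a replicate block, thinning, all 36 libraries and leaving out libraries. The script was also run on simulated counts with known changes. These had the same spread in both groups, so they do not cover the unequal spread of the populations here. Fold bounds take 3 counts over a group as the floor, and intervals are exact (95%) and cover counting error only. Genes named by rule were the 12 of largest difference in each direction that passed without overlap in all 8 left-out fits at 20 CPM or more, up to 4 passing members of each list by p, and for the diet contrast 8 in each direction. Other list members were named after their values were seen. Members and lists were chosen with earlier results of these data known. Whether replicate numbers pair the samples is not given in the sources used here. Correlations of same-numbered deviations were 0.0244, 0.0039, -0.0191 and -0.0080. With the wide spread between aortic libraries, such values cannot decide whether the samples were paired. Promoters are from RefSeq. Some list members that are counted are not reported here by name.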

Additional observations from a re-analysis of the deposited data

Results flagged for a closer look

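In 40 of 326 sets of 4 libraries (163 named genes in 2 populations), 1 library stood apart from the others by Dixon's ratio. Its gap to the nearest library, over the range of the 4, was above the critical value. The ratio does not measure the size of the gap in CPM, and close values can pass it, as for Adgre1 in monocyte library 3. For values with a normal spread, chance passes the critical value in about 1 of 20 sets, and the sets share libraries. That rate does not hold for counts, since a gene counted in 1 library alone always passes. The 40 sets therefore cannot be set against it. Aortic library 1 stood apart at 25.8 CPM for Chil3, 2.36 CPM for Mfge8, 28.4 CPM for Ppbp and 0.103 CPM for S1pr4. Aortic library 2 stood apart at 82.8 CPM for Ace, 106 CPM for Cfb, 0.120 CPM for Ly6c2, 22.6 CPM for Mpo, 34.7 CPM for Plac8 and 16.2 CPM for Retnlg. Aortic library 3 stood apart at 39.4 CPM for Lrg1. Aortic library 4 stood apart at 128 CPM for Dsn1, 1917 CPM for Hspa1a, 3028 CPM for Hspa1b, 1.18 CPM for Il10, 138 CPM for Il1a, 301 CPM for Klf13, 198 CPM for Klf2, 195 CPM for Nfkb1, 1085 CPM for Nfkbiz, 308 CPM for Rplp1 and 50.5 CPM for Vcan. Monocyte library 1 stood apart at 0.0830 CPM for Cd209f, 0.166 CPM for Cxcl1, 0.0830 CPM for Cyr61, 0.249 CPM for Gas6, 31.8 CPM for Il1b and 0.415 CPM for Pmp22. Monocyte library 2 stood apart at 2027 CPM for Plac8. Monocyte library 3 stood apart at 220.4 CPM for Adgre1 and 0.338 CPM for Ccl12. Monocyte library 4 stood apart at 5113 CPM for Chil3, 135 CPM for F10, 349 CPM for Hp, 168 CPM for Irf7, 1022 CPM for Itgam, 916 CPM for Klf13, 42.4 CPM for Ppbp, 76.7 CPM for Siglec1 and 920.2 CPM for Tlr13. Several of the smallest values rest on 1 to 5 counts in all. Aortic library 4 was the one most often apart among aortic libraries, as it was for the chaperones Hspa1a and Hspa1b, and Plac8, Retnlg, Mpo and Ly6c2 had aortic counts in library 2 alone. The cause was not tested.

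The baseline difference between the populations differed from that on diet for 34 named genes, by edgeR's quasi-likelihood test of the interaction with adjustment over 10696 genes. The aorta stood higher at baseline, with adjusted p in brackets, for Ccl5 (0.0433), Cd63 (0.0161), Dsn1 (0.0309), E2f8 (0.00708), Lrg1 (0.0395), Lyve1 (0.0485), Mgl2 (0.0186), Mmp9 (0.0466), Mpo (0.0239), Mrpl57 (0.0316), Ramp1 (0.0236) and Zdhhc1 (0.0279). It stood lower, with no count in any baseline aortic library, for Cdh5 (0.0167), Clec4e (2.13e-10), Gpnmb (3.78e-04), Itga1 (0.00622), Mcemp1 (0.00279), Megf9 (1.79e-04), Sirpb1a (3.78e-04) and Slc4a1 (0.0241). It stood lower with aortic counts present for Abcg1 (0.0371), Ctsb (0.00737), Ctss (0.0130), Fos (0.00431), Hp (0.0139), Il10 (0.0395), Il1b (0.0355), Junb (0.00581), Klf6 (0.0302), Mfge8 (0.0142), Nfkbiz (0.0249), Nr4a1 (0.00285), Tlr7 (0.0241) and Zfp36 (0.00572). Stage and depth cannot be told apart for these genes, since all baseline libraries were deeper than all libraries on diet in this fit.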

How the results depend on the processing

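The comparison of the populations gave 1084 genes. RLE factors (1072), no filter (1240), DESeq2 (1570), limma-voom (1250), thinning (903) and dropping the ribosomal RNA gene Rn45s (1081) stayed within 1.5 times of this. A replicate block gave 427, and whether the numbers pair the samples is not known. Fitting all 36 libraries gave 3140, and without aortic libraries 3 and 4 there were 3539, an alternative chosen after seeing the data. Leaving out 1 library gave 723 to 1893; without aortic library 1, 2 or 4 it was 1811, 1761 or 1893. The share of calls that were higher was 36.3%, against 49.7% in DESeq2, 23.4% in limma-voom, 51.3% with the block, 48.3% with all 36 libraries and 24.8% to 36.7% when 1 library was left out. A similar total does not mean the same genes. Of the 1084 calls, 762 were also made in limma-voom, 956 in DESeq2, 874 after thinning and 395 with the block. RLE factors shared 1043 of them and no filter 996. For the contrast with diet, 363 genes became 723 in DESeq2, 167 after thinning and 718 without aortic libraries 3 and 4 (276 to 1004 when 1 library was left out, with 1004, 933 and 619 without aortic library 1, 2 and 4), and stayed within 1.5 times with RLE factors (358), no filter (376) and the replicate block (248). None of the 103 genes named by rule for the populations or the 46 for diet reversed. Of the 103, 36 lost their call in limma-voom, 24 with the block, 2 with no filter, 2 without aortic libraries 3 and 4 and 1 in DESeq2, and 55 of 824 fits that left out a library lost a call. After thinning, 100 of the 103 kept their call and the others had no result in that fit. Of the 46, 17 lost their call after thinning, where 26 kept it and the others had no result. Further losses were 14 with the block, 13 without aortic libraries 3 and 4, 8 with no filter, 2 with RLE factors and 1 in DESeq2, and 74 of 368 fits that left out a library lost a call. The gap in detected genes was -4042 thinned and -4418.5 as deposited. The cause of these changes was not tested. Genes under about 100 CPM are limited most, since 1 or more aortic libraries often lack them.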

Other observations

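Baseline peritoneal macrophages, which the comparison did not use, give a further level for the genes that separated the populations, as mean ± SD over 4 libraries with no test. C1qb was at 1052 ± 231 CPM in peritoneal macrophages, beside 1009.7 ± 152 CPM in the aorta. Adgre1 (1881 ± 254 CPM) and Timd4 (620.3 ± 31.3 CPM) were higher there than in any aortic library. Mrc1 was at 94.2 ± 44.5 CPM, Folr2 at 21.6 ± 10.5 CPM, Cd163 at 43.2 ± 22.02 CPM and Lyve1 at 138 ± 65.6 CPM, all below the lowest aortic library. The class II gene H2-Ab1 was at 31.01 ± 18.8 CPM and the monocyte receptor gene Ccr2 at 10.99 ± 2.25 CPM, below every aortic and monocyte library for Ccr2. Egr1 (20.4 ± 6.52 CPM) and Hspa1a (6.00 ± 1.95 CPM) were in or near the range of monocytes, whereas the aortic means were 790.2 ± 260.02 and 765 ± 770.2 CPM.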
